A study of Amphimedon queenslandica with 124 samples.

Results

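The comparison described here is between sponge individuals that share a stage label and differ in their sample number. Libraries numbered 101 to 124 come in 3 runs of 8 consecutive numbers, and in each run the stage labels follow the same order: settlement, mat-formation at 3 numbers, chamber-formation, tent-pole-formation, juvenile and adult. The second mat individuals are numbered 103, 111 and 119, the first mat individuals 102, 110 and 118, and the third 104, 112 and 120. The comparison therefore holds 6 of the 34 mat-formation individuals and 6 of the 124 individuals of the series, across 36868 gene models. All are untreated Amphimedon queenslandica, a demosponge, collected at Heron Island, preserved singly and sequenced by CEL-seq, which counts tags from the 3' ends of polyadenylated RNA. The labels give neither hours after settlement nor parentage, so whether the number within a run marks a substage is asked of the data and is not stated by the labels. Nothing in the labels says that individuals came from separate mothers, and the p-values measure the spread between these individuals.

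A settling larva of this sponge attaches, flattens and loses its swimming form. At the mat stage it is a thin sheet in which larval cells lose their cilia, move inward and turn into other cell types. Choanocyte chambers, the pumping units of the adult body, appear at chamber-formation, and the tent-pole stage raises the first outflow opening. In whole individuals, fewer cells of a type and less RNA per cell cannot be told apart.

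The second mat libraries held 593086, 1187001 and 1290359 counts and the first mat libraries 1251743, 911376 and 1184673 counts, in the order of the runs. Over the 24 libraries numbered 101 to 124 the totals ran from 548828 to 2195894. The gene models carry identifiers only and 0 of them matched the RefSeq gene table, so no gene name, function, marker or sequence is given. Among the 24 libraries the 3 runs themselves showed 0 of 10825 gene models (0.0%) called in edgeR, with 592 at an unadjusted p under 0.05, and limma-voom called 6.

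Among the gene models called between second and first mat individuals, more were lower in the second individuals than higher. Of 6993 gene models tested, 73 (1.04%) passed an adjusted p of 0.05 in edgeR's quasi-likelihood test (Benjamini-Hochberg over all tested). In the second individuals 59 were lower (0.844% of those tested) and 14 were higher (0.2%). At an unadjusted p under 0.05 the same fit gave a near even split, 558 lower and 512 higher. On the log2 scale the lower gene models had a median fold change of -1.997, from -1.10 to -3.69, and the higher ones a median of 1.72, from 1.32 to 4.10. At least 8-fold differences numbered 9 among the lower and 1 among the higher. The median over all gene models tested was 0.03. The groups were free of overlap for all 73, and also for 1679 of the 6993 tested (24.0%), most of which were not called. The count rests on few libraries. It was 16 without second individual 1, 42 without second individual 3, 72 without second individual 2, and 26, 21 and 8 without first individuals 1, 2 and 3. All 73 kept their direction in each of these fits, which groups free of overlap all but fix in advance. Without any 1 first individual none of the gene models higher in the second individuals was called.

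**Figure D1:**
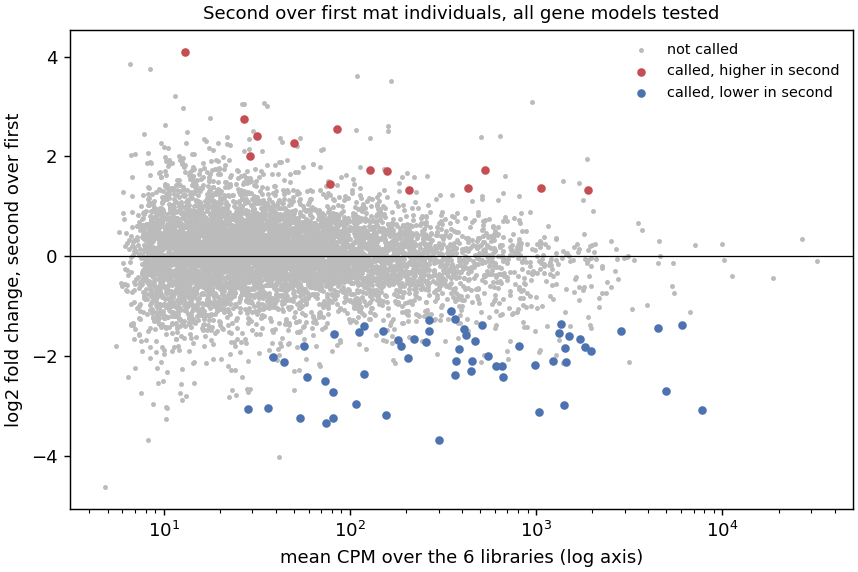
Log2 fold change of second over first mat individuals against the mean CPM of the 6 libraries (log axis) for the 6993 gene models tested. Among the 59 called lower in the second individuals, the lowest mean in the first individuals was 50.2 CPM. Many gene models tested averaged less than that in both groups. The 14 called higher are fewer.

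The lower set included abundant transcripts. Of its 59 gene models, 5 averaged at least 1000 CPM (each count scaled by its library total) in the second individuals, against 20 in the first. The choice of the set favours high levels in the first individuals. The share of all gene models tested at that level was not counted, so abundance is not shown to be particular to the set. Together the 59 took 2.17%, 2.48% and 2.66% of all counts in the second mat libraries, against 8.35%, 8.46% and 8.68% in the first. The groups were far apart, with an SD of 0.250 percentage points among the second individuals and 0.168 among the first. The 4 most abundant of the 59 accounted for 0.967% of counts in the second individuals and 3.71% in the first, and the other 55 for 1.47% and 4.78%. The 14 higher gene models took 0.646%, 0.776% and 0.722% of counts in the second individuals, against 0.210%, 0.242% and 0.233% in the first. These 6 libraries chose the sets, so the shares describe them and test nothing.

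Aqu2.1.17549_001 showed the greatest fold change among the lower gene models averaging at least 50 CPM in the first individuals. It stood at 70.8, 41.3 and 37.2 CPM in second individuals 1 to 3, against 574, 507 and 568.1 CPM in first individuals 1 to 3. All 3 first individuals were far above all 3 second individuals. The log2 fold change was -3.69 (edgeR, SE 0.305, p = 0.00217 after adjustment over all tested), and it was called under all 17 alternatives run, with adjusted p from 7.38e-27 to 0.0241. In places that took no part in the comparison it was low on both sides. It had 58.1, 30.7 and 56.6 CPM at settlement, 19.9, 24.8 and 28.7 CPM in the third mat individuals and 17.2, 31.0 and 29.2 CPM at chamber-formation. Outside metamorphosis the same gene model had a median of 449.5 CPM at cleavage (84.0 to 1130, n = 7) and 318 CPM at late ring (9.72 to 2050, n = 7), and 41.7 CPM in free-swimming larvae (n = 13).

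Aqu2.1.20671_001 followed in size, with 28.7, 16.8 and 3.10 CPM in the second individuals, against 143, 133 and 122 CPM in the first. The second individuals spread widely and the lowest value rests on 4 counts, but none came near the first. The log2 fold change was -3.35 (edgeR, SE 0.571, p = 0.0298 after adjustment over all tested). The adjusted p was 0.0538 and 0.0766 without second individual 1 or 2, and 0.118, 0.117 and 0.129 without first individual 1, 2 or 3. It was 0.0709 in a fit of all 24 libraries, in a range of 3.45e-12 to 0.129 over the alternatives. Settlement individuals covered both levels, with 43.2, 3.13 and 138 CPM, and 1 of them stood at the level of the first mat individuals. The third mat individuals held 13.6, 11.6 and 21.7 CPM. The next identifier in the numbering was also called lower. The 59 lower gene models included 4 such pairs of consecutive identifiers, the 14 higher ones 0, and 0 pairs were called in opposite directions. The sets differ in size and no rate over all gene models tested is given, so these counts do not compare the sets. Whether consecutive identifiers are similar copies that share tags is not given in the sources used here.

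Among the higher gene models averaging at least 50 CPM in the second individuals, Aqu2.1.08640_001 led. It stood at 74.2, 186 and 183 CPM in the second individuals, against 18.4, 29.6 and 19.4 CPM in the first. The log2 fold change was 2.54 (edgeR, SE 0.412, p = 0.0291 after adjustment over all tested). The call was lost without any of 5 libraries: the adjusted p was 0.0619 and 0.0678 without second individual 2 or 3, and 0.126, 0.0977 and 0.138 without first individual 1, 2 or 3. It was 0.102 in a fit of all 24 libraries, in a range of 1.75e-08 to 0.138 over the alternatives. Other places covered both levels, with 20.4, 124 and 16.4 CPM at settlement and 38.8, 122 and 46.2 CPM in the third mat individuals.

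Aqu2.1.30578_001 had 60.7, 68.2 and 34.1 CPM in the second individuals, against 6.39, 9.88 and 10.1 CPM in the first. The first individuals were low beside their neighbours in the run: settlement individuals had 18.0, 28.8 and 38.9 CPM and the third mat individuals 21.0, 31.8 and 39.9 CPM. Adults were as low as the first individuals, with 4.92, 14.1 and 6.44 CPM. The log2 fold change was 2.40 (edgeR, SE 0.408, p = 0.0298 after adjustment over all tested). The adjusted p was 0.113 and 0.0766 without second individual 1 or 2, and 0.129, 0.123 and 0.130 without first individual 1, 2 or 3. It was 0.0604 with limma-voom and 0.0546 with the library total as a covariate, in a range of 0.000285 to 0.130 over the alternatives.

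**Figure D2:**
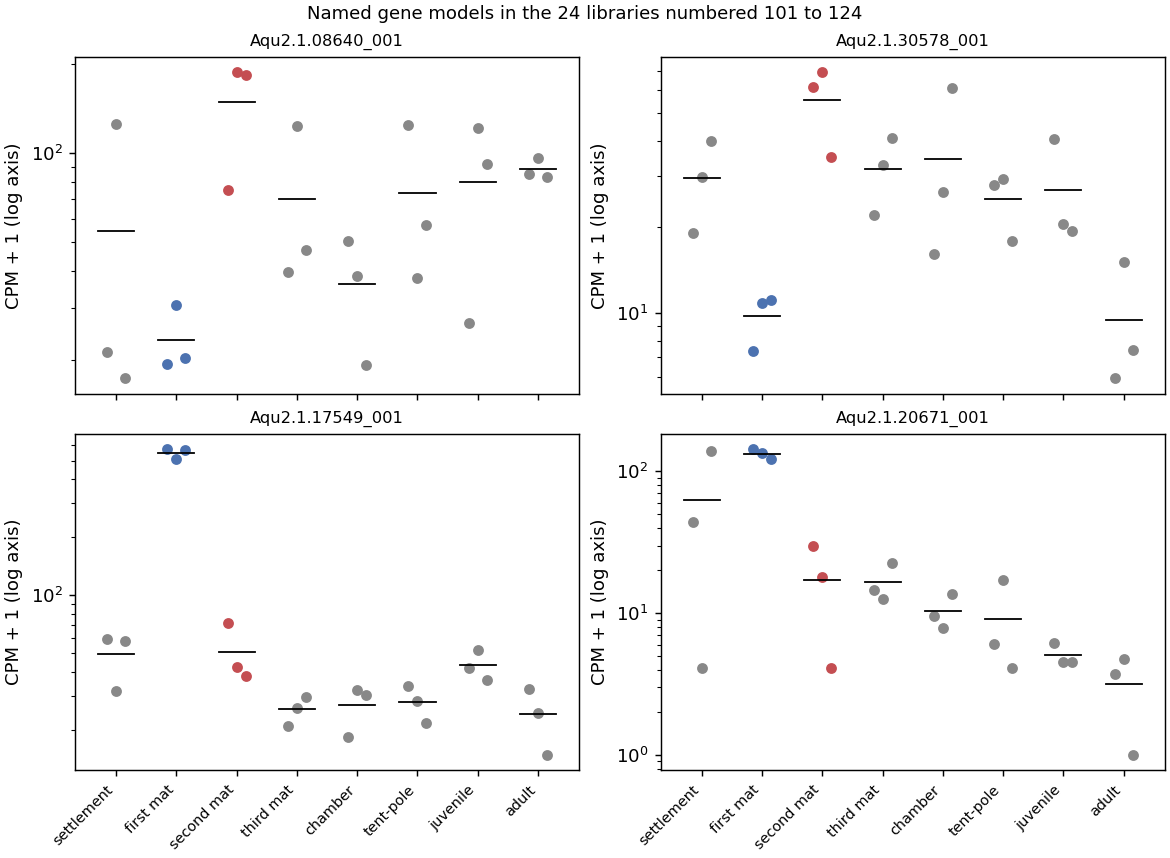
CPM + 1 (log axis) of the 4 named gene models in each of the 24 libraries numbered 101 to 124, by place in the run, with bars at the mean of 3 individuals. Second mat individuals are red and first mat individuals blue. Aqu2.1.17549_001 is at 507 to 574 CPM in the first mat individuals and at most 70.8 CPM in the other places shown.

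The lower set peaked in the first mat individuals along the run. Its mean share of counts was 3.70% ± 1.11 (SD, n = 3) at settlement, 8.49% ± 0.168 in the first mat individuals, 2.44% ± 0.250 in the second, 1.54% ± 0.290 in the third and 0.966% ± 0.083 at chamber-formation. From tent-pole-formation to adult it lay between 0.768% and 1.15%. Gene by gene, 46 of the 59 had their highest mean log2(CPM + 1) in the first mat individuals among the 8 places, and 10 at settlement. Of all gene models tested, 12.4% had their highest mean in the first mat individuals, and the choice of the set favours that place. In 37 of the 59 the first individuals exceeded both settlement and the second individuals by at least 1 log2 unit, against 3.47% of all tested. The side towards the second individuals was fixed by the choice of the set, while the background had to meet both conditions. The side towards settlement uses the same first individuals, so the choice favours it too. Another 11 were at least as high at settlement as in the first individuals, against 46.3% of all tested, a share that the choice lowers.

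Places that took no part in the comparison also separated the lower set from the other gene models. Over the 6 such places, 37 of the 59 (62.7%) had their highest mean at settlement, against 18.8% of all gene models tested. The third mat mean was below the settlement mean in 43 of the 59 (72.9%), against 32.8% of all tested. Chamber-formation over settlement shares no library with second over first. There edgeR called 1638 of 7950 gene models (20.6%), 767 higher (9.65%) and 871 lower (11.0%). Of the 58 lower-set gene models tested there, 33 (56.9%) were lower at chamber-formation and 1 was higher. Of all gene models tested in both comparisons, 11.8% were lower and 7.41% higher. These shares are counts beside a background that was not matched for abundance.

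The higher set followed another course. Its mean share of counts was 0.269% ± 0.030 (SD, n = 3) at settlement, 0.228% ± 0.016 in the first mat individuals, 0.714% ± 0.065 in the second, 0.770% ± 0.394 in the third and 0.889% ± 0.457 at chamber-formation. It was highest in juveniles at 0.970% ± 0.070. Of the 14, 2 averaged at least 1000 CPM in the second individuals and weigh most in these shares. The mean log2(CPM + 1) over the 14 was 7.63 in the second, 7.39 in the third, 7.60 at chamber-formation and 7.91 in juveniles. In 8 of the 14 (57.1%) the third mat mean was below the second, against 43.6% of all tested, and the choice of the set favours the second individuals. In 7 of the 14 the first individuals stood below both settlement and the second individuals by at least 1 log2 unit, against 3.20% of all tested. The side towards the second individuals was fixed by the choice of the set, and the side towards settlement was favoured by it. In 8 of the 14 the settlement level lay between the first and the second individuals, against 23.5% of all tested. In the lower set it lay between them in 25 of 59 (42.4%). Both sets were chosen for a wide gap between first and second individuals, which favours such a position. Of the 14, 4 (28.6%) were called higher at chamber-formation than at settlement, against 7.41% of the gene models tested in both comparisons. Another 1 was called lower, against 11.8%.

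**Figure D3:**
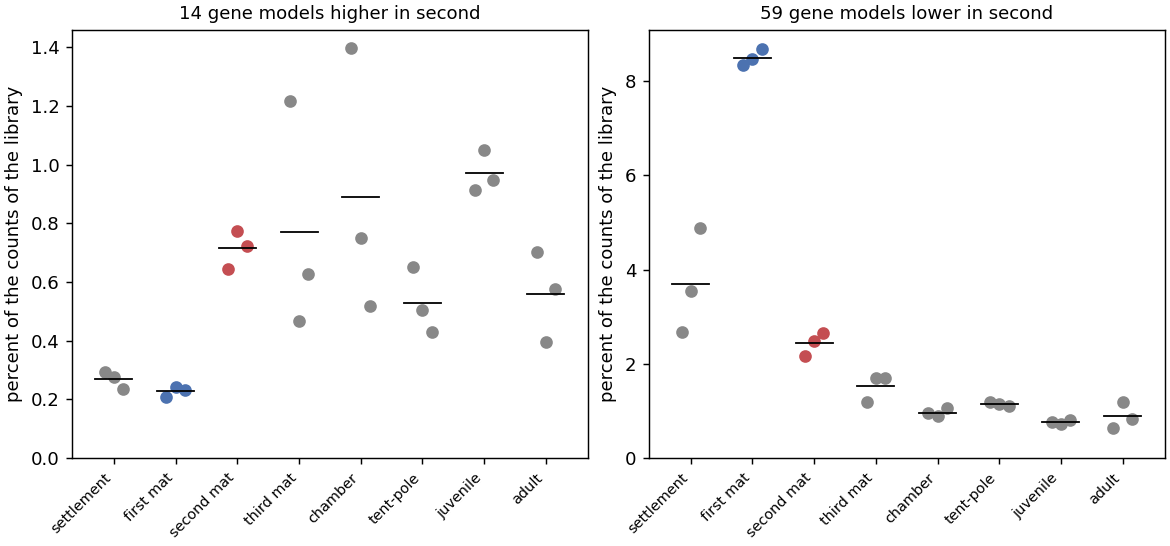
Percent of each library's counts in the 14 gene models called higher (left) and the 59 called lower (right) in second over first mat individuals, for the 24 libraries by place in the run, with bars at the mean. Second mat libraries are red and first mat libraries blue. The lower set peaks in the first mat individuals at 8.35% to 8.68%, and the higher set stays at or above 0.395% from the second individuals on.

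On an axis from settlement to chamber-formation the second mat individuals lay between the first and the third. The direction and scale of the axis were fixed by the settlement and chamber-formation libraries alone. Its 10825 gene models were those passing the filter on low counts over all 24 libraries, mat libraries included. On it 0 is the mean of the settlement libraries and 1 that of chamber-formation. The second mat individuals stood at 0.478, 0.529 and 0.450, against 0.357, 0.366 and 0.330 for the first. The third stood at 0.621, 0.651 and 0.643. The 3 sets of mat individuals did not overlap, so the order of the numbers was necessarily the order on the axis in each of the 3 runs. The mean was 0.486 ± 0.040 for the second and 0.351 ± 0.019 for the first individuals (SD, n = 3 each), a difference of 0.135 (two-sided exact permutation p = 0.1, the smallest that 3 against 3 can give). Thinning all 24 libraries to 500000 counts gave a difference of 0.129. Tent-pole, juvenile and adult libraries lay at 0.795 to 0.997.

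**Figure D4:**
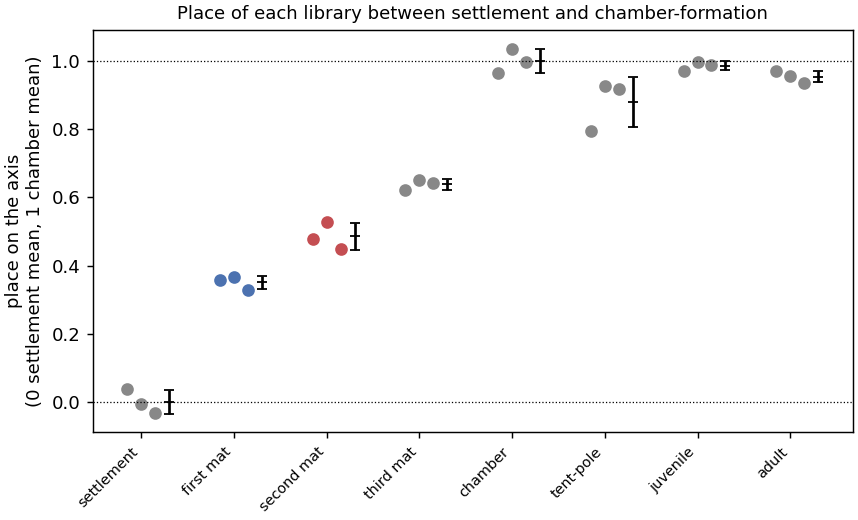
Place of each of the 24 libraries on the axis from the settlement mean (0) to the chamber-formation mean (1), with mean ± SD of 3 individuals beside the points. The second mat individuals (red, 0.450 to 0.529) lie between the first (blue, 0.330 to 0.366) and the third (0.621 to 0.651).

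Gene lists called between settlement and chamber-formation shifted in the same sense between the mat individuals. The 487 tested gene models of the list higher at chamber-formation than at settlement had a median log2 fold change of 0.33 in second over first, and 70.2% were above 0. The 774 of the list lower at chamber-formation had a median of -0.39, and 27.3% were above 0. Over all 6993 the median was 0.03 and 52.2% were above 0. Of the 774, the same 33 as above (4.26%) were called lower in the second individuals, against 0.844% of all tested.

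Settlement over free-swimming larvae, from libraries numbered 1 to 100, gave lists with no library or run in common with the 6. There edgeR called 976 of 3581 gene models (27.3%), 439 higher (12.3%) and 537 lower (15.0%) at settlement. Of the 418 tested gene models from the list higher at settlement, 21 (5.02%) were lower in the second mat individuals, against 0.844% of all tested, and the list's median was -0.13. Seen from the lower set, 21 of the 47 tested there (44.7%) were higher at settlement than in larvae and 5 (10.6%) were lower. The list lower at settlement than in larvae had a median of -0.06, with 46.1% above 0. Settlement replicate 4 of these libraries, with 48720 counts, had 13.9% of its counts in the lower set. The other settlement libraries had 0.785% to 2.31% and the larvae 0.984% to 1.93%. How far the overlaps rest on that library was not tested.

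**Figure D5:**
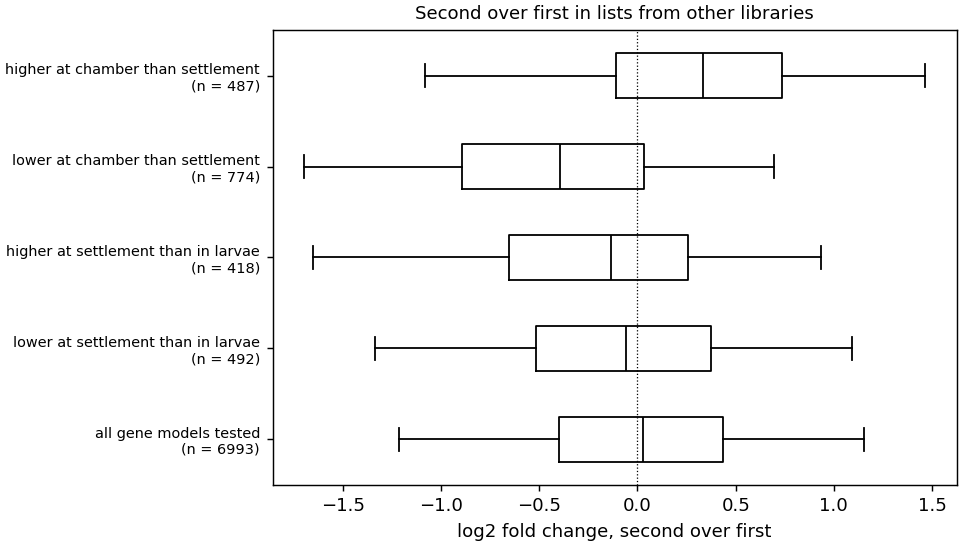
Log2 fold change of second over first mat individuals in 4 gene lists from other libraries and over all gene models tested; boxes span the quartiles, lines mark medians and whiskers the 5th and 95th percentiles. The list higher at chamber-formation is shifted up (median 0.33) and the list lower at chamber-formation down (median -0.39).

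Neighbouring steps of the run are given beside this difference. Counts of called gene models depend on the spread within groups and on the fit, so they do not measure the size of a step. First mat individuals over settlement had 1358 of 7040 gene models called (19.3%), and the third over the second mat individuals had 8 of 7573 (0.106%), with 787 at an unadjusted p under 0.05. The third over first, added after the data were seen, had 950 of 7353 called (12.9%). The first, the second and the third individuals are shared between these comparisons, and the differences between their counts were not tested. The axis difference of the third over the second, 0.153, stood beside 0.135 for second over first.

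The runs were also set against each other. The differences of second minus first individual in log2(CPM + 1), over the 6993 gene models, correlated between runs 1 and 2 with r = 0.26, between runs 1 and 3 with r = 0.23 and between runs 2 and 3 with r = 0.20. These are weak correlations across genes, given as a description; the runs share no library, and genes are not independent replicates.

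Whole-transcriptome similarity did not part the groups cleanly. At an equal depth of 500000 counts, the nearest library of each of the 3 first individuals was another first individual. Of the second individuals, 1 was nearest to another second individual and the other two to individuals of the third place. The highest rank correlation between a second and a first individual equalled, to 3 digits, the 0.879 that made first individuals 2 and 3 nearest to each other. The median rank correlation was 0.841 among second individuals, 0.854 among first individuals, 0.828 between second and first (0.812 to 0.879) and 0.835 between second and the third.

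The number of gene models detected depended on how depth was treated and on the counts required for detection. At 500000 counts it was 12869, 13229 and 13799 in the second individuals, against 13636, 13025 and 12401 in the first. The groups overlapped, and the means of 13299 ± 469 and 13021 ± 618 (SD, n = 3 each) differed by less than the spread between individuals (two-sided exact permutation p = 0.5). With at least 2 counts required at the same depth of 500000, the second individuals were higher by 438.5 (exact permutation p = 0.1). At 100000 counts the groups no longer overlapped and the second individuals were higher by 434 (exact permutation p = 0.1). Without thinning the difference was -192.

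The 25 mat-formation individuals numbered 1 to 100 carry no such place in a run. Their libraries held 1158 to 235043 counts, and 22 held at least 10000. In those 22 the lower set took 0.368% to 4.22% of counts, with a median of 0.902%. None reached the first mat individuals, 2 lay between the means of second and first individuals, and 20 were below both. The higher set took 0.028% to 0.505%, with 7 libraries between the means and 15 below both. Depth and number set differ between these libraries and the 6, and their part in these values was not tested.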

How the data were processed

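Each CEL-seq library comes from 1 whole individual. The authors used CASAVA 1.8, Bowtie2 2.1.0 and HTSeq 0.5.4p3, per the submitters' processing notes, with settings, genome build and use of molecular identifiers not stated there. They deposited raw counts per gene model. The table was held only in part, ending within a line, and its 36868 complete gene models were used.

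Groups follow the sample number. The members and lists were chosen with earlier results of these data known. The main test was edgeR 4.0.16 in R 4.3.3 on the compared groups alone (quasi-likelihood, TMM, two-sided). filterByExpr kept gene models reaching 10 counts in enough libraries and 15 in total, so one high in 1 group only could pass. A gene model was called below 0.05 after Benjamini-Hochberg adjustment. SE is the size of the log2 fold change over the root of F. DESeq2 1.42.0 and limma 3.58.1 were alternatives, beside other filters, fits, depth and leaving out each library. CPM used library totals. Axis places are projections of log2(CPM + 1) onto the chamber-formation minus settlement means. Detection used 10 draws of 500000 counts. Python 3.11.15 ran numpy 2.4.6, pandas 2.3.3 and scipy 1.17.1. The tests were checked on simulated data. Libraries within a group differed beyond counting noise (chi-square per degree of freedom 9.12 to 17.5), so none was counted as a repeat.

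By rule, the text names 2 called gene models per direction, those with the greatest log2 fold change in size whose groups did not overlap and whose higher group averaged 50 CPM or more. No others are named, since the identifiers carry no gene names.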

Additional observations from a re-analysis of the deposited data

Results flagged for a closer look

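One settlement library numbered 1 to 100, replicate 4 with 48720 counts, stood apart from the other 6 of its group in the gene models that separate the mat individuals. The 59 gene models lower in the second mat individuals took 13.9% of its counts, against 0.785% to 2.31% in the other 6 settlement libraries and 8.35% to 8.68% in the first mat individuals. The same library had 472 CPM of Aqu2.1.17549_001, from 23 counts, where the other 6 had 0 to 172 CPM. It had 123 CPM of Aqu2.1.20671_001, from 6 counts, where the other 6 had no count. The cause was not tested.

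One late ring library, replicate 6, had 2050 CPM of Aqu2.1.17549_001, where the other 6 had 9.72 to 766 CPM. One cleavage library had 0.472% of its counts in the 14 gene models higher in the second mat individuals, above the other 6 of its stage. Of 28 groups examined for an extreme value 5 had one. The nominal rate of such a test, about 1 in 20, assumes independent and normally spread values. Some of the 5 rest on few counts and more than 1 on the same settlement library, so they cannot be set against that rate.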

How the results depend on the processing

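The count of 73 gene models called between second and first mat individuals was 330 with DESeq2, 453 without a filter on low counts, 153 with a count minimum of 50, 118 in a fit of the 9 mat libraries, 110 with the 6 libraries thinned to 593086 counts (chosen after seeing the data), and 8 to 72 leaving out each library in turn. Fits with the run as a replicate block called 77 (6 libraries) and 96 (24 libraries). The labels do not pair the individuals. Deviations from the group means correlated at 0.068, 0.160 and -0.024 for second and first individuals of the same run. For individuals of different runs they correlated at -0.214 to 0.141. In every alternative tabulated, more gene models were lower than higher, from 57.4% lower without a filter to 100% without any 1 first individual. The difference on the axis was 0.094 with juveniles as its end. The third over the second mat individuals had 134 called with DESeq2 and 37 in a fit of 24 libraries, against 8, and runs had 6 with limma-voom, against 0. The difference in gene models detected, 278, was -192 without thinning and -31.5 to 586 leaving out each library. The 4 named gene models kept their direction in every alternative in which they were tested. Their choice by groups without overlap all but fixed that direction. Of the 4, 3 lost the call in 7, 7 and 8 of the alternatives. With the replicate block the adjusted p (edgeR) was 0.0655 for Aqu2.1.30578_001 (6 libraries), and 0.0798 for Aqu2.1.08640_001 and 0.0977 for Aqu2.1.20671_001 (24 libraries). The cause of these changes was not tested. The median SE over all tested was 0.42 on the log2 scale with 3 individuals a group, which limits the differences that could be called.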
